A study of Mus musculus with 18 samples.

Results

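The regions described here are the 1000 widest H3K27me3 domains of vehicle-treated pre-osteoblasts. They were chosen by their width alone, as the 1000 widest, with ties broken by chromosome and start, among the 143399 peaks of the merged DMSO H3K27me3 list. MC3T3-E1 subclone 4, a single clone derived from mouse calvaria of the C57BL/6 strain, was used at passage 9. After 3 days in osteogenic medium, cells that had received 2.5 µM EPZ6438, a small-molecule inhibitor of the methyltransferase EZH2, were set against cells that had received 0.25% DMSO as vehicle. The labels do not say if EPZ6438 was given in DMSO, and every culture was in osteogenic medium. RNA was sequenced from 3 samples per arm, and chromatin was immunoprecipitated for H3K27me3 and H3K4me3 in 2 samples per mark and arm, with input. Each mark and arm is represented by 1 merged peak list called against the input of its own arm, with starts and ends and no heights. The peak comparisons therefore come without replicates and at unknown depth.

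EZH2 is the catalytic subunit of Polycomb repressive complex 2, which trimethylates lysine 27 of histone H3 over silent genes and often spreads the mark into broad domains. In embryonic stem cells the broadest such domains are known for covering genes of developmental transcription factors, among them the Hox clusters. H3K4me3 marks active promoters, and its presence together with H3K27me3 defines the bivalent state of poised promoters.

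The width that chose the members ran from 3552 to 12062 bp, with a median of 4403.5 bp and quartiles of 3875.75 and 5383 bp, against a median of 399 bp over the whole list. The narrowest member, rank 1000, was 3552 bp wide and lay 12215 bp from Mafa, and the first peak left out was 3550 bp wide. The domains made up 0.697% of the peaks and, with 4.75 Mb, 5.31% of the bases of the list. The widest, chr19:45284141-45296202 (mm10), lay between genes, 4252 bp from the long noncoding RNA Gm29595 and 48329 bp from the nearest protein-coding gene, Lbx1, a homeobox factor of limb muscle precursors and spinal cord neurons. The next, chr6:42645643-42656504, began 389 bp from Fam115c, whose current RefSeq symbol is Tcaf2, a regulator of the cold-sensing channel TRPM8. The third, chr10:80490540-80500184, covered part of Onecut3, a homeobox factor of the onecut family. The fourth, chr19:34533538-34542881, lay 6064 bp from Lipa, which encodes lysosomal acid lipase. The fifth, chr10:44219863-44228945, lay 675 bp from the pseudogene Speer5-ps1 and 39413 bp from the autophagy gene Atg5.

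Sequences upstream of gene starts are shown for 1 gene whose start faced a domain at close range (Fam115c), 2 genes whose starts lay inside a domain (Slc35g1 and Neurod2), and 2 genes whose gene model holds a domain far from the start (Pdzd2 and Mdga1). They let the CpG-rich starts chosen here, inside and outside the domains, be compared, and do not stand for all starts near domains. Each is the 250 bases before a RefSeq start (GRCm38.p6), 5′ to 3′ on the strand of the gene, and capitals mark CG dinucleotides.
Fam115c, chr6:42645042-42645291, minus strand: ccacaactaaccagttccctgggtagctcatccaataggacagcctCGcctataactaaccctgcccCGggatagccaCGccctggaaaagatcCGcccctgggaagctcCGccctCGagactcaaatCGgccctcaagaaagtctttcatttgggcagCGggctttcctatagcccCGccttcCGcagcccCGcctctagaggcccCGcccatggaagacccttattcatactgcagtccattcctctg
Slc35g1, chr19:38395730-38395979, plus strand: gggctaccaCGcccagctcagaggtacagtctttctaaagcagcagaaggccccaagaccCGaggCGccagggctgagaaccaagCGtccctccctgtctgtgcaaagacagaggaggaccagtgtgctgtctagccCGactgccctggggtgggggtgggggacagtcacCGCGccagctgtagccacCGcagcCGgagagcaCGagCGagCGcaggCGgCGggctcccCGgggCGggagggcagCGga
Neurod2, chr11:98329646-98329895, minus strand: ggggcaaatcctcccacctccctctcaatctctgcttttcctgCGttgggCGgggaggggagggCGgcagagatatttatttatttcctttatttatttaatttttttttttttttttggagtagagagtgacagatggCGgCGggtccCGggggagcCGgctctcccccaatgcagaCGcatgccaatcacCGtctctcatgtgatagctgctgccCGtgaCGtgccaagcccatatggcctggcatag
Pdzd2, chr15:12739893-12740142, minus strand: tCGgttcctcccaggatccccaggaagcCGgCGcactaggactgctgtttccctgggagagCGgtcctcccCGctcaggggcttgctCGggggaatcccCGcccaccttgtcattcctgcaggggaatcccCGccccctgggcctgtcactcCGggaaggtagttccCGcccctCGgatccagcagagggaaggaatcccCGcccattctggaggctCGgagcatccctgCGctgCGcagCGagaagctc
Mdga1, chr17:29887883-29888132, minus strand: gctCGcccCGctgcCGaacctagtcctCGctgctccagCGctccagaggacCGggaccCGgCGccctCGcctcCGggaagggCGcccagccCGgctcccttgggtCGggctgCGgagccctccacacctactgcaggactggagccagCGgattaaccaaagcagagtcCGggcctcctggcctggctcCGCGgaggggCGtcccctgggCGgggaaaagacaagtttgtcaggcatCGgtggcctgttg
The window of Fam115c held 12 CG dinucleotides and its start was 602 bp from the domain. The windows of Slc35g1 and Neurod2, both inside a domain over their whole length, held 17 and 11. Those of Pdzd2 and Mdga1 held 16 and 21, with starts 143276 and 56208 bp from the domain. The domain of Pdzd2 lay downstream of the printed start, and that of Mdga1 upstream of it, inside only the longer gene model of the deposited table (chr17:29827956-29970087). Among all 32851 RefSeq windows, 23.5% held at least as many CG dinucleotides as that of Slc35g1 and 16.3% as many as that of Mdga1. For Neurod2, Fam115c and Pdzd2 these shares were 35.6%, 33.5% and 25.4%. The windows of Gm29595 and Lipa, which are not shown, held only 2 and 5 CG dinucleotides, with shares of 81.2% and 55.6%.

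The domains lay mostly between genes. Of the overlapped genes, 66 had a gene end inside a domain, and 22 of these matched a RefSeq window by symbol. The counts of starts that follow rest on the position of RefSeq starts, whether or not the symbol matched a gene. They leave out genes without a RefSeq window. A RefSeq start lay inside 23 of the 983 domains off chromosome 18 (2.34%), against 1.64% of the next 1000 peaks and 0.428% of the whole list. The 26 windows of these starts, from 25 genes, had a median of 9.5 CG dinucleotides and 50.0% of them held at least 10, against a median of 6 and 37.8% among all windows. Starts inside other DMSO H3K27me3 peaks had a median of 6, and 43.9% held at least 10. Of the 1000, 302 overlapped a gene body by at least 1 bp (30.2%), against 33.0% of the next 1000 peaks and 35.8% of the whole list, and 250 overlapped a protein-coding gene (25%, against 31.8% of the list). Most of the overlapping domains, 253, lay wholly within a gene body, and 19 overlapped more than 1 gene. The other 698 had a median distance of 11148.5 bp to the nearest gene. Including overlaps as 0, the median distance to a protein-coding gene was 9345 bp for the domains and 11872 bp for the whole list. The farthest domain was 1403126 bp from a protein-coding gene, 92 were over 100 kb away, and 261 were within 10 kb without overlap. In all, 289 genes were overlapped, of which 227 were protein-coding, 15 long intergenic noncoding and 13 antisense. Only 24 of them lay wholly inside a domain, and 28 held more than 1 domain. The most bases inside domains fell in Armc3, with 20609 bp in 4 domains, in Lrrc69, with 18593 bp in 3 domains, and in Gm20388, a gene model of 4434882 bp that overlaps 190 other genes. The reads of Gm20388 cannot be told apart from those of these genes.

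The domains were unevenly spread over the chromosomes. Chromosome 6 held 125 (12.5%, against 8.71% of all peaks of the list), chromosome 2 held 113 (11.3% against 8.80%), chromosome 17 held 85 (8.50% against 5.16%) and chromosome 19 held 76 (7.60% against 4.01%). Chromosome 3 held 22 (2.20% against 4.41%), chromosome 8 held 25 (2.5% against 5.20%), chromosome 7 held 25 (2.50% against 4.91%), chromosome 9 held 15 (1.5% against 4.50%), chromosomes 12 and 13 held 12 each (1.20% against 3.21% and 3.19%), chromosome 14 held 10, the X chromosome 2 and the Y chromosome 0. The surroundings were also marked more densely than those of the rest of the list, but little more than those of the next widest peaks. The 50 kb on each side of a domain were covered by other H3K27me3 peaks over a median of 11.4% of their bases. This share was 10.7% for ranks 1001 to 2000, 10.5% for ranks 2001 to 5000 and 6.57% for the rest of the list as a whole. Another domain lay within 50 kb of 246 domains and within 100 kb of 332. When peaks less than 1 kb apart were joined before ranking, 502 of the 1000 domains were part of the 1000 widest joined regions, the widest of which spanned 21644 bp.

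**Figure D1:**
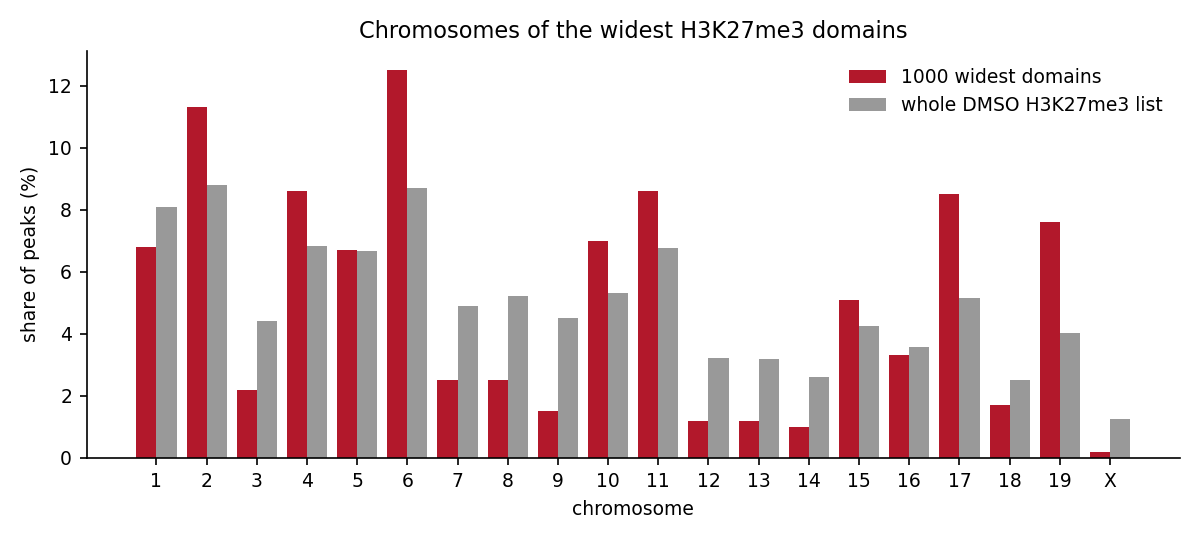
Share of the 1000 widest domains (red bars) and of all 143399 peaks of the DMSO H3K27me3 list (grey bars) on each chromosome, in percent, with the Y chromosome, which held no domain, left out. The domain share stands above the list share on chromosomes 2, 4, 6, 10, 11, 15, 17 and 19, and below it on chromosomes 1, 3, 7, 8, 9, 12, 13, 14, 16, 18 and X.

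The merged EPZ6438 H3K27me3 list, of 20764 peaks, covered 17.96% of the bases of the domains, or 0.853 Mb, against 7.33% of the bases of the rest of the DMSO list. The covered share was lower for narrower peaks, with 13.3% in ranks 1001 to 2000, 11.5% in ranks 2001 to 5000, 8.81% in ranks 5001 to 20000, 6.48% in ranks 20001 to 50000 and 5.14% in the narrower peaks. Within the domains the widest 250 kept 22.2% of their bases and the next 3 sets of 250 kept 17%, 14.4% and 15.8%. An EPZ6438 peak was present in 656 domains (65.6%), against 46.1% of the next 1000 peaks and 10.8% of the whole list. Wide peaks have more bases that a peak of the other list can touch, so the base share is the measure less bound to width. These shares describe 1 merged list per arm, and the difference between the ranks was not tested.

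Few domains were covered in full. Of the 1000, 344 held no EPZ6438 peak, 518 kept at least 10% of their bases, 285 at least 25%, 79 at least 50% and 13 at least 75%. The median over all domains was 11%, the upper quartile 28.3%, and the median over the 656 with a peak 22.6%. Of the 5 widest domains, the one near Gm29595 kept 38.8%, that near Fam115c 34.5%, that over Onecut3 20.2%, that near Lipa 38.0% and that near Speer5-ps1 43.4%. All bases were kept in 2 domains. These were rank 953, 1413 bp from Kbtbd12, and rank 991, 1212 bp from the noncoding gene 2410019O14Rik. Next were rank 975 inside Cecr2, a subunit of an ISWI chromatin remodeller, with 89.0%, rank 283 inside Gm14085 with 86.5%, and rank 135, 11661 bp from Rbm33, with 85.4%. Of these genes only Rbm33 had more than 1 read in either arm, with 8.65, 7.97 and 8.34 RPKM in EPZ6438 and 7.92, 8.82 and 7.82 RPKM in DMSO, and the values of the arms overlapped.

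**Figure D2:**
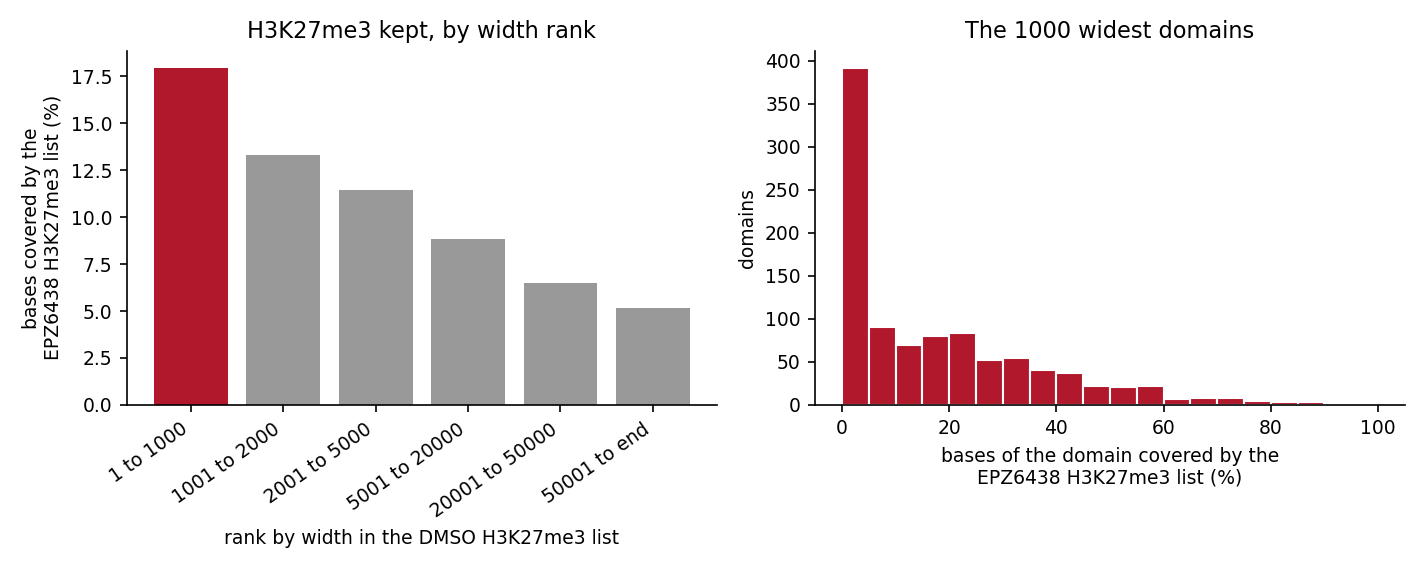
Left, percent of bases of DMSO H3K27me3 peaks covered by the EPZ6438 H3K27me3 list, by width rank, with the 1000 widest domains in red; right, number of domains by the percent of their bases covered, in steps of 5 percentage points. Coverage is 17.96% in the widest 1000 and 5.14% in the narrowest group, and the lowest step of the right panel holds more domains than any other step.

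Over all domains together, what was kept was spread along most of their length and was less at their ends. With each domain cut into 20 equal slices, the EPZ6438 H3K27me3 list covered 19.3% of the bases of the central slices and 11.7% of the outermost ones. It already covered 17.5% in slice 3 and 16.9% in slice 18, and at most 21.0% in any slice. The 936 EPZ6438 peaks that touched a domain had a median width of 761.5 bp, against 412 bp for the other EPZ6438 peaks, and were 4.51% of the list. Of the widest 1000 EPZ6438 peaks, 200 touched a domain. Domains over a gene body kept 17.8% and those between genes 18%. Domains over 100 kb from any protein-coding gene kept 9.27%, against 20.1% for those at 10 to 100 kb and 17.8% for those nearer or overlapping.

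The other mark was called in short pieces of the domains. The EPZ6438 H3K4me3 list, of 16216 peaks, had a peak in 25 domains (2.5%, against 1.2% of the next 1000 peaks and 0.284% of the whole H3K27me3 list). The DMSO H3K4me3 list, of 40113 peaks, had one in 684 domains (68.4%, against 53.3% and 11.9%). They covered 0.190% and 8.20% of the domain bases (whole H3K27me3 list, 0.113% and 4.60% of bases). The H3K4me3 lists differ in size as a whole, and the difference between the arms in the domains was not tested. The EPZ6438 peaks in domains numbered 29, with a median width of 259 bp, and the DMSO peaks 1482, with a median width of 222 bp. None of the 29 and 8 of the 1465 DMSO peaks off chromosome 18 (0.546%) lay within 1 kb of a RefSeq start, against 64.7% of the whole EPZ6438 H3K4me3 list and 19.5% of the whole DMSO H3K4me3 list. With DMSO H3K4me3 peaks of at least 400 bp only, 134 domains held one. Domain bases under a DMSO H3K4me3 peak were covered by the EPZ6438 H3K27me3 list over 31.3% of their length, against 16.8% of the other domain bases. Domains with a DMSO H3K4me3 peak kept 20.2% of their H3K27me3 bases and those without 12.7%. The domain with the most DMSO H3K4me3 bases was rank 796, chr14:19415762-19419568, which covers the predicted gene Gm21738 and was under H3K4me3 over 1611 bp in EPZ6438 and over its whole length in DMSO. It was followed by rank 18 inside Lmntd1, with 46.2%, and rank 638, 14817 bp from the pseudogene Gm11814, with 66.2%.

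**Figure D3:**
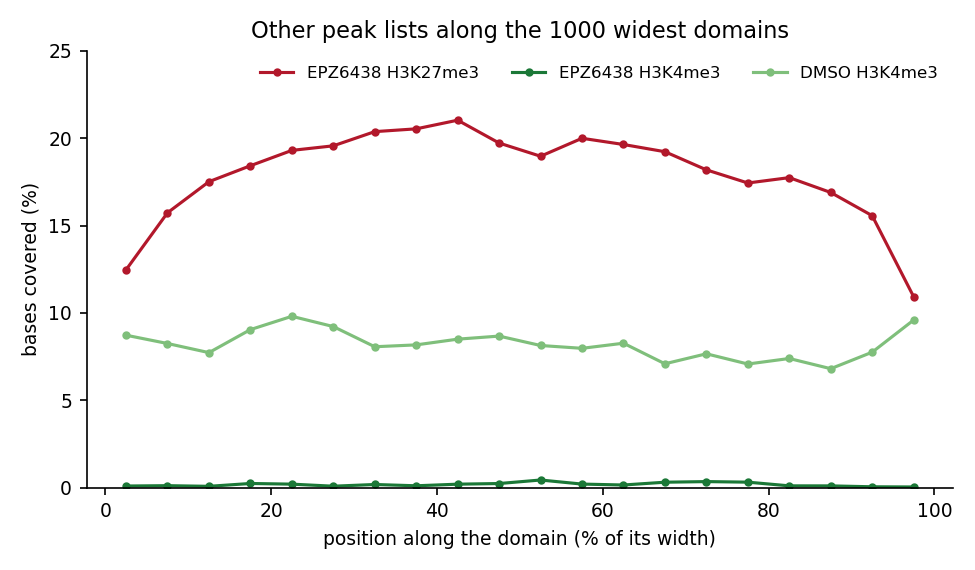
Percent of bases covered by the EPZ6438 H3K27me3, EPZ6438 H3K4me3 and DMSO H3K4me3 lists in 20 equal slices along the 1000 widest domains, from their left to their right end on the chromosome. EPZ6438 H3K27me3 covers 11.7% of the outermost and 19.3% of the central slices, and EPZ6438 H3K4me3 stays below 0.448% throughout.

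RNA was measured in samples that the choice of domains did not use. The libraries held 18807156 to 25365513 reads in genes, and the osteoblast identity of the cells was checked by marker genes, among them Sp7, a transcription factor of the osteoblast lineage, at 99.1 to 105 RPKM in EPZ6438 and 52.6 to 55.8 RPKM in DMSO. The osteoblast list summed to 9169 to 10907 RPKM in EPZ6438 and 6500 to 8779 RPKM in DMSO. Of its 27 tested members, 14 were higher and 4 lower in EPZ6438, where 3.8% of all tested genes rose and 3.24% fell. Of the marker lists of other cell types, neuronal markers summed to 31.0 to 39.1 RPKM in EPZ6438 and 7.31 to 9.39 RPKM in DMSO, with 1 of 3 tested members higher and 8 of 19 at 0 in every library. Chondrocyte markers summed to 220 to 267 RPKM in EPZ6438 and 98.5 to 121 RPKM in DMSO, with 6 of 11 tested members higher and 3 of 19 at 0. Skeletal muscle markers summed to 15.9 to 22.9 RPKM in EPZ6438 and 12.1 to 14.8 RPKM in DMSO, with 1 of 4 tested members higher. Endothelial markers summed to 6.99 to 7.73 RPKM in EPZ6438 and 6.09 to 6.56 RPKM in DMSO. Blood cell markers summed to 1.30 to 1.82 RPKM in EPZ6438 and 1.06 to 1.34 RPKM in DMSO. Adipocyte markers summed to 3.09 to 3.36 RPKM in EPZ6438 and 3.30 to 4.11 RPKM in DMSO. These lists had 3, 2 and 1 tested members, and none was called in either direction. The part of other cell types in the results below was not tested, and in these bulk samples fewer cells of a type and less RNA per cell cannot be told apart. The labels do not tell whether the samples of an arm were separate cultures. P-values therefore refer to the scatter of these samples alone, and that scatter may be technical.

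Genes under the widest domains were mostly low or silent in both arms. Of the 289 overlapped genes, 123 had no read in any library (42.6%, against 46.6% of all genes), and the median of the mean level was 0.00256 RPKM in EPZ6438 and 0 in DMSO, against 0 in each arm over all genes. At least 1 RPKM on average was reached by 25 in EPZ6438 (8.65%) and 22 in DMSO (7.61%), against 28.7% of all genes in either arm. Of the 289, 227 were protein-coding, with a median of 0.00717 RPKM in EPZ6438 and 0.00133 RPKM in DMSO. This median was 0.671 and 0.628 RPKM over all protein-coding genes. It was 0.0143 and 0.00789 RPKM for those overlapped by other DMSO H3K27me3 peaks only. At least 1 RPKM in DMSO was reached by 9.69% of the 227, against 48.1% and 21.5% of these groups. No read was found for 79 of the 227, against 6404 of 22019 and 2255 of 6543. The 242 genes with too few reads to test held 688 reads in EPZ6438 and 430 reads in DMSO, summed over the 3 libraries of each arm. The tested genes, with at least 10 reads in at least 3 libraries, numbered 47, all protein-coding. Of them, 4 passed this filter only through the EPZ6438 libraries, with no DMSO library reaching 10 reads, namely Hoxb13, Prex1, Tspan12 and Myrf. Of the 47, 9 changed, where 7.04% of all 14213 tested genes changed. Of these, 8 rose, where 3.8% of all rose, and 1 fell, where 3.24% of all fell (adjusted p under 0.05, limma on log2(RPKM + 0.1), Benjamini-Hochberg over all tested genes). The values of the arms did not overlap for 23 of the 47, against 26.7% of all tested genes. Of the 43 tested genes other than these 4, 5 rose (11.6%) and 1 fell (2.33%). The 5 still include Mtus2, with 25 reads over the DMSO libraries, and Col23a1, with fewer than 10 in DMSO replicate 1. Their DMSO libraries alone could not have passed the filter, so the 5 of 43 are not free of this selection. The median log2 change of the 47 was 0.16, against −0.03 over all tested genes. Of the 2343 tested genes overlapped by other DMSO H3K27me3 peaks only, 251 rose (10.7%) and 73 fell (3.12%), and of the 11823 overlapped by no such peak 281 rose (2.38%) and 387 fell (3.27%). The 2343 still include 67 genes that passed the filter only through the EPZ6438 libraries. The share of 10.7% is therefore to be set beside the 8 of 47, and not beside the 5 of 43. Among the genes under the domains, the number that rose was 3 without EPZ6438 replicate 1, 3 without EPZ6438 replicate 2, 2 without EPZ6438 replicate 3 and 5 without DMSO replicate 2. Over all tested genes these fits called 381, 372, 309 and 335 changed genes, against 1001 with all libraries. In each fit without an EPZ6438 library, 3 of the 8 no longer had enough reads to be tested. The gene that fell was not called without EPZ6438 replicate 2, without EPZ6438 replicate 3 or without DMSO replicate 2.

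**Figure D4:**
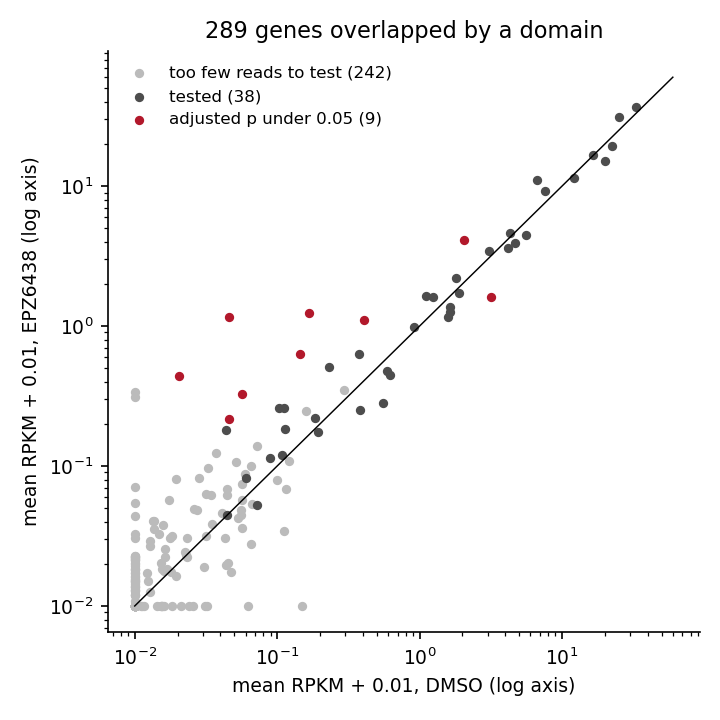
Mean level of each of the 289 overlapped genes in EPZ6438 (vertical) and DMSO (horizontal), in RPKM + 0.01 on log axes, with the line of equal level. Red points are the 9 genes at adjusted p under 0.05, 8 of them above the line, and most grey points, with too few reads to test, lie at the low corner.

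Hoxb13, the most 5′ gene of the HoxB cluster, known for patterning the tail end of the body and the prostate, had the largest change on the log2(RPKM + 0.1) scale, while with voom on the recovered reads Prex1 changed more (5.17, against 4.74 for Hoxb13). It had 1.03, 1.26 and 1.18 RPKM in EPZ6438, against 0.0482, 0.0408 and 0.0179 RPKM in DMSO, which is 167 reads against 5. Every EPZ6438 library stood far above every DMSO library, and the log2 change was 3.21 (SE 0.19, adjusted p = 0.000313). The domain of rank 928, chr11:96193245-96196874, held 81.7% of the gene with its left end, and the EPZ6438 list still covered 71.9% of this domain. Hoxb13 was the only tested gene with at least 50% of its body inside domains.

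Slc35g1, of a family of membrane transporters, was a riser with a RefSeq start inside a domain (rank 840, chr19:38392822-38396575), the start whose CG-rich sequence is printed above. It had 1.15, 0.943 and 1.19 RPKM in EPZ6438, against 0.352, 0.402 and 0.443 RPKM in DMSO, with no overlap between the arms. The log2 change was 1.26 (SE 0.17, adjusted p = 0.00662), and the EPZ6438 list covered 22.2% of the domain. With no filter on low values the adjusted p was 0.0503. The other measured genes with RefSeq starts inside domains were low or silent, apart from Nol4l at 1.15 ± 0.13 RPKM in EPZ6438 and 1.57 ± 0.26 RPKM in DMSO (SD, n = 3 each), which did not pass (log2 change −0.42, limma adjusted p = 0.227).

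In the other risers the domain lay within a long gene model of the deposited table, and in Mdga1 upstream of the RefSeq start printed above. Pdzd2, a scaffold with PDZ domains, had 1.22, 1.24 and 1.20 RPKM in EPZ6438, against 0.133, 0.154 and 0.184 RPKM in DMSO. Its log2 change was 2.37 (SE 0.16, adjusted p = 0.000637), and the domain in its body, rank 915 of 3641 bp, held no EPZ6438 peak. Mdga1, a membrane-anchored partner of neuroligins, had 3.89, 4.18 and 4.25 RPKM in EPZ6438, against 1.78, 1.97 and 2.38 RPKM in DMSO. Its log2 change was 0.98 (SE 0.14, adjusted p = 0.00862), but the adjusted p was 0.0531 and 0.0559 in the fits without DMSO replicate 2 and without EPZ6438 replicate 3. The arms of both genes were clearly apart. Below 1 RPKM in each arm, Prex1, an exchange factor for Rac, had 0.319, 0.557 and 0.404 RPKM in EPZ6438, against 0.0155, 0.00438 and 0.0115 RPKM in DMSO (log2 change 2.23, adjusted p = 0.00219). Tspan12, a tetraspanin of Norrin and Frizzled-4 signalling, had 0.308, 0.284 and 0.361 RPKM in EPZ6438, against 0.0607, 0.0343 and 0.0450 RPKM in DMSO (log2 change 1.51, adjusted p = 0.00527). Prex1 and Tspan12 also showed no overlap. Col23a1, a membrane collagen, and Mtus2, a microtubule-associated protein, passed at 0.0309 and 0.0351, but their calls were lost under 6 and 10 of 14 alternatives. The starts of Prex1, Tspan12 and Col23a1 were 51798, 38204 and 69249 bp from the domain. Pdzd2, Prex1, Mdga1 and Mtus2 share bases with other gene models, and whether counting used strand is not given in the sources used here.

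Cdh17, a cadherin of the intestinal lining, was the 1 overlapped gene that fell. It had 1.69, 1.42 and 1.67 RPKM in EPZ6438, against 3.43, 3.33 and 2.72 RPKM in DMSO, with every EPZ6438 library lower. The log2 change was −0.94 (SE 0.15, adjusted p = 0.0121), and its domain, rank 398 inside the gene, held no EPZ6438 peak. The adjusted p was 0.0545 to 0.0697 in the 3 fits that lost the call.

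**Figure D5:**
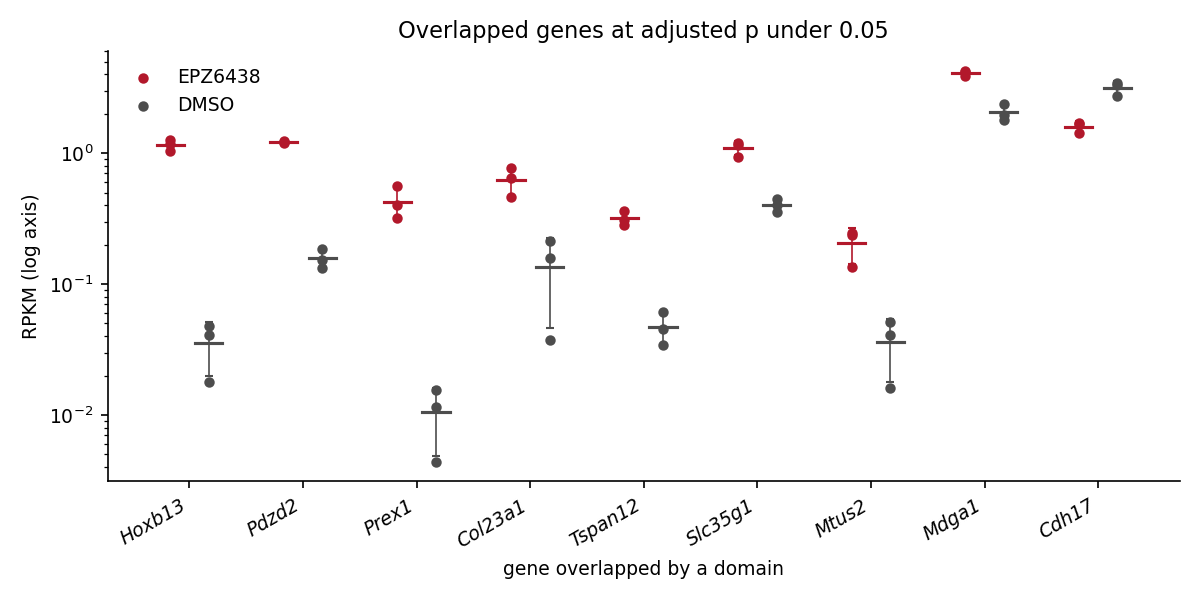
RPKM (log axis) of the 9 overlapped genes at adjusted p under 0.05, with EPZ6438 in red to the left of DMSO in grey; points are the 3 libraries of each arm, horizontal lines their mean, vertical lines 1 SD. The arms do not overlap in any of the 9, EPZ6438 lies higher in 8, and Cdh17 is lower in EPZ6438.

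The most abundant overlapped genes did not pass. Pprc1, a coactivator of mitochondrial gene programmes, had 30.1, 32.3 and 31.5 RPKM in EPZ6438, against 22.0, 26.2 and 27.1 RPKM in DMSO (log2 change 0.32, adjusted p = 0.105). Kank1, a regulator of the actin cytoskeleton, had 18.1, 20.2 and 19.3 RPKM in EPZ6438, against 20.3, 23.0 and 24.6 RPKM in DMSO (log2 change −0.23, adjusted p = 0.235). The arms of both genes stood apart without overlap, by little in Kank1. Gm20388 had a mean of 37.0 RPKM in EPZ6438 and 33.1 RPKM in DMSO, with overlapping values. Among the genes beside the widest domains, Lipa had 39.8, 35.2 and 37.5 RPKM in EPZ6438, against 51.1, 47.7 and 40.6 RPKM in DMSO (log2 change −0.30, adjusted p = 0.149). Fam115c had 2.67, 2.70 and 3.74 RPKM in EPZ6438, against 2.36, 2.40 and 2.16 RPKM in DMSO (log2 change 0.36, adjusted p = 0.264). Both were apart without overlap and did not pass. Where the domain kept an EPZ6438 H3K27me3 peak, 34 of 208 overlapped genes were tested and 5 rose, with 0 falling. Where it kept none, 13 of 81 were tested, 3 rose and 1 fell, where 3.8% and 3.24% of all tested genes did, and the difference between these groups was not tested.

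Few of the listed developmental, signalling and cell type genes lay under the widest domains, though a larger share than of all genes. Of 563 genes in 20 lists of developmental factors, signalling genes and cell type markers, 10 were overlapped by a domain (1.78%, against 0.667% of all genes and 1.03% of protein-coding genes), while 261 were overlapped by some DMSO H3K27me3 peak (46.4%, against 21.2% of all genes). Protein-coding genes are under such a peak more often than all genes, with 15249 of 22019 under none, against 34116 of 43309. The 10 were the homeobox genes Hoxb13, Onecut3 and Uncx, the neuronal factor Neurod2, the ligands Wnt3a, Wnt8b and Shh, the vesicular transporters of glutamate (Slc17a7) and of the inhibitory transmitter GABA (Slc32a1), and the fatty acid receptor Cd36. Of 39 Hox genes 1 was under a domain and 18 under any DMSO peak, and of 136 other homeobox genes 2 and 67. No domain overlapped a member of the lists of forkhead, T-box, Sox, Gata and Pax factors, of Wnt antagonists, of BMP, TGF-beta and FGF ligands, or of markers of osteoblasts, chondrocytes, muscle, endothelium and blood. Of the 10, only Hoxb13 and Slc17a7 had enough reads to test. Slc17a7 had 0.485, 0.380 and 0.629 RPKM in EPZ6438, against 0.235, 0.276 and 0.148 RPKM in DMSO, without overlap, and did not pass (log2 change 0.91, adjusted p = 0.0766). Onecut3 had 23 reads in EPZ6438 and 6 in DMSO, Wnt8b 7 and 0, Shh 2 and 0, Cd36 8 and 1, and Neurod2 had 0 in each.

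A further 31 listed genes were the nearest protein-coding gene to a domain without overlap, 11 of them within 10 kb. These included Rspo1, a secreted enhancer of Wnt signalling, 746 bp from the domain of rank 567, Pax2, a factor of kidney and eye, 1085 bp from rank 422, Nodal, a TGF-beta family ligand of the early embryo, 1737 bp from rank 237, and Cdx2, a caudal homeobox factor, 1925 bp from rank 920. Six3, a factor of forebrain and eye, lay 4586 bp from rank 210. No read was found for 12 of the 31, among them Nodal, Cdx2, Six3 and Lbx1. Of the 10 tested, 2 rose and 0 fell, where 3.8% and 3.24% of all tested genes did. Col9a1, a cartilage collagen, had 0.216, 0.253 and 0.158 RPKM in EPZ6438, against 0, 0 and 0.0156 RPKM in DMSO (log2 change 1.55, adjusted p = 0.00756). It could not have passed the filter on reads without its EPZ6438 libraries. Gata6, a zinc finger factor of heart and endoderm, had 0.297, 0.246 and 0.219 RPKM in EPZ6438, against 0.0999, 0.0986 and 0.111 RPKM in DMSO (log2 change 0.80, adjusted p = 0.0491). Their domains were 27155 and 196038 bp away. Ezh2 itself was the nearest gene to rank 841, at 14067 bp, with 14.8 ± 0.68 RPKM in EPZ6438 and 14.4 ± 1.79 RPKM in DMSO (SD, n = 3 each; limma adjusted p = 0.839).

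Among protein-coding genes, those nearest to a domain had enough reads to test far more often than those beneath one. The share tested was 59.1% of the nearest, 20.7% of the overlapped and 54.9% of all protein-coding genes. The share of the nearest genes was thus close to that of all protein-coding genes, and that of the overlapped genes was lower. Of the 634 nearest protein-coding genes, 375 were tested. The median of the mean level over the 634 was 1.46 RPKM in EPZ6438 and 1.31 RPKM in DMSO. Over all protein-coding genes it was 0.671 RPKM in EPZ6438 and 0.628 RPKM in DMSO. Of the 375, 6 passed the filter on reads only through the EPZ6438 libraries and 0 only through the DMSO libraries. These 6 are counted in the shares that follow. In all, 29 of the 375 rose (7.73%, against 3.8% of all tested genes and 4.25% of tested protein-coding genes). Of the 375, 10 fell (2.67%, against 3.24% and 3.53%), and the median log2 change was −0.01. Genes overlapped by other DMSO H3K27me3 peaks were not removed from the nearest genes. Of tested protein-coding genes, 11.1% rose where only such other peaks overlapped and 2.66% where no DMSO H3K27me3 peak did. The part of this mix in the 7.73% was not tested. The number of nearest genes that rose was 10 without EPZ6438 replicate 1 or replicate 2, 8 without EPZ6438 replicate 3 and 12 without DMSO replicate 2. The number that fell was then 3, 3, 2 and 2, in fits that called 381, 372, 309 and 335 changed genes of all tested, against 1001 with all libraries. Penk, the precursor of enkephalin peptides, had 0.639, 0.887 and 0.733 RPKM in EPZ6438, against 0, 0.193 and 0.0964 RPKM in DMSO (log2 change 2.24, adjusted p = 0.0170), 142604 bp from its domain. With no read in DMSO replicate 1, Penk could not have passed the filter on reads without its EPZ6438 libraries. Tpd52 had 0.673, 0.703 and 0.680 RPKM in EPZ6438, against 0.0852, 0.0781 and 0.163 RPKM in DMSO (log2 change 1.93, adjusted p = 0.00284), 34360 bp away. Both showed no overlap between the arms. Among genes with higher levels, the chemokine gene Cxcl12 had 8.75, 8.74 and 9.02 RPKM in EPZ6438, against 4.76, 3.94 and 4.20 RPKM in DMSO (log2 change 1.03, adjusted p = 0.00247), 162832 bp away. Tnc, an extracellular matrix glycoprotein, had 232, 233 and 231 RPKM in EPZ6438, against 119, 127 and 127 RPKM in DMSO (log2 change 0.90, adjusted p = 0.000749), 308289 bp away. Of those that fell, Gbp2, an interferon-induced guanylate-binding protein, had 2.10, 1.96 and 1.87 RPKM in EPZ6438, against 4.99, 4.67 and 4.12 RPKM in DMSO (log2 change −1.18, adjusted p = 0.00278), 13339 bp from rank 151. These 5 were chosen after their values were seen, and in each the 3 EPZ6438 libraries lay on 1 side of the 3 DMSO libraries.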

How the data were processed

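Expression values are RPKM, deposited by the authors for 43346 genes and scaled to gene length and to the reads in genes, per the file headers. The 37 mitochondrial genes, at 0 throughout, were left out. Peaks were deposited by the authors as starts and ends only, in 1 list per mark and arm, with merged samples called against input per the file names. Per the submitters' processing notes, the tools included STAR 2.6.1c, Subread, MACS2 and HOMER, and the build was mm10. The sources used here do not give the caller's thresholds, the annotation or the use of strand.

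The members, gene lists and tests were chosen with earlier results of these data known. Overlaps needed at least 1 bp. RPKM times length gave whole reads for 100% of values (tolerance 0.02). A floor of 3 reads is 0.118 to 0.160 reads per 1000000, covering counting error only. Genes with at least 10 reads in at least 3 libraries entered a two-sided limma 3.58.1 fit in R 4.3.3 (trend, empirical Bayes, no block) on log2(RPKM + 0.1), with Benjamini-Hochberg adjustment over 14213 genes. This scale understates changes of low genes. On simulated reads for these 14213 genes 52% of 1.5-fold, 90% of 2-fold, 98% of 4-fold and 96% of 8-fold changes were recovered, and 3.45% of 174 calls were false. The simulated reads had the same fixed dispersion for every gene, not estimated from these data, and no shifts between libraries other than depth. These rates therefore need not hold for the real samples. No library was a copy of another, since replicates had a chi-square of 6.53 to 62.4 per gene. Intervals were handled in Python 3.11.15 (pandas 2.3.3, numpy 2.4.6), and figures drawn with matplotlib 3.10.9. RefSeq starts (GRCm38.p6) were placed in domains by position, starts and sequences were linked to genes by symbol, and chromosome 18 is not in that table.

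Genes were named by rule: genes over or nearest to the 5 widest domains; the largest passing changes with no overlap and at least 1 RPKM in the higher arm; per list the overlapped member with the smallest adjusted p or, if none passed, the highest level; genes of the 5 domains most covered by EPZ6438 H3K27me3 and the 3 with most DMSO H3K4me3; and the 3 most abundant overlapped genes and the 3 with most bases in domains. Other names were singled out later. The result of 1 single gene is not reported here. The alternatives were other numbers and joinings of domains, overlaps, pseudocounts, filters, median-of-ratios scaling, voom, a replicate block and leaving out each library.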

Additional observations from a re-analysis of the deposited data

How the results depend on the processing

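With the 500 widest peaks, 358 domains held an EPZ6438 H3K27me3 peak, 14 an EPZ6438 H3K4me3 peak and 370 a DMSO H3K4me3 peak, and 2 overlapped genes rose; with the 2000 widest, the counts were 1117 for EPZ6438 H3K27me3 and 1217 for DMSO H3K4me3, 17 genes rose and 2 fell. At least 50% coverage was reached in 79 domains by EPZ6438 H3K27me3, in 0 by EPZ6438 H3K4me3 and in 3 by DMSO H3K4me3. With peaks of at least 400 bp, 3 domains held EPZ6438 H3K4me3 and 134 DMSO H3K4me3. Joined domains kept 15.2% of their bases, and 0 overlapped genes fell. With genes ending within 1 kb of a domain 4 rose and 0 fell, and with at least 50% of the gene body inside 1 rose and 0 fell, with a median log2 change of 3.21 from Hoxb13 alone. These counts follow from which regions and genes were entered.

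With no filter on low values, 5 overlapped genes rose, and of the nearest genes 15 rose and 5 fell. At least 30 reads in 3 libraries, voom and the replicate block each gave 2 overlapped genes that fell, Cdh17 and Palld. The cause was not tested. Leaving out 1 library gave 2 to 8 overlapped genes that rose and 0 to 2 that fell, and 8 to 25 nearest genes that rose and 2 to 14 that fell. The alternatives for the nearest genes were added after seeing the data.

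Same-numbered samples of the arms had correlated deviations of 0.410, 0.0781 and 0.0561, and the best match was with the own number for replicates 1 and 3, so the block rests on numbers only. It moved the calls over all genes from 1001 to 1051. The 2 planned count-model tests were not run, and voom on the recovered reads was run in addition to the RPKM fit. Peak lists without heights give no measure of signal, and low reads leave 242 of 289 overlapped genes untested.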
